A study of Mus musculus with 4 samples.

Results

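The switched constant genes of the immunoglobulin heavy chain (IgH) locus are Ighg3, Ighg1, Ighg2b, Ighg2c, Ighe and Igha, which encode the heavy chain constant regions of the IgG subclasses, IgE and IgA. They were followed as single transcripts, by taking each entry that carries one of these gene names in the deposited kallisto table of estimated counts. This gave 10 transcripts of 6 genes among 88198 transcripts in all, and Ighm, the gene of the IgM constant region, served as the unswitched reference with 2 transcripts. The RNA came from CD43-depleted splenic B cells of homozygous mutant mice of strain 129, which carry the a allotype of the IgH locus. In ΔleftPAL mice the upstream portion of the 3' regulatory region (3'RR) of the locus is missing, with the enhancers hs3a and hs1,2 and all that separates them. ΔIRIS mice keep all enhancers of this region, with hs3a inverted, and lack the inverted repeated intervening sequences on the left side of the palindrome only. Both lines came from ES cells of strain 129, passed through C57BL/6 mates and were freed of the selection cassette by a cre transgene. Each genotype gave 1 resting library and 1 library after culture for 48 h with LPS at 5 µg per ml, a bacterial lipopolysaccharide that activates B cells without T cell help. The labels give a pool of B cells from 4 animals for each library, whereas the methods and a legend describe the pooling in other ways. The wt libraries were not analysed here. With 1 library per group there was no residual error and no test, so every difference below compares libraries and has no replicate check. Intervals are 95% exact intervals (Poisson for levels, Clopper-Pearson for ratios and shares) and hold for counting error only. They do not cover spread between mice, pools or cultures, or the division of reads between entries. Reads copied by PCR do not stand for separate molecules, so the intervals can be too narrow even for counting error.

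Each constant gene has a promoter of its own upstream of a switch region. Transcription from this promoter gives a germline transcript that is spliced to the constant exons and precedes class switch recombination, and after recombination the same exons are joined to the V(D)J exon. Each gene also ends in more than 1 way. Cleavage after the last constant domain exon gives the mRNA of secreted antibody, whereas splicing from within that exon to the membrane exons gives the heavy chain of the B cell receptor. Resting B cells make mostly the membrane form of IgM, and plasmablasts mostly the secreted form. In the mouse, LPS alone is known to direct germline transcription and switching to IgG3 and IgG2b, whereas IgG1 and IgE need IL-4, IgG2a or IgG2c interferon γ and IgA TGFβ. Germline and switched transcripts share the constant exons and were counted together here.

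The entries lie on the minus strand of chromosome 12 in mm10 (GRCm38), in the order Ighm, Ighg3, Ighg1, Ighg2b, Ighg2c, Ighe, Igha. The secreted entry of Ighg3 spans chr12:113359575-113361232 in 4 exons, and that of Ighe spans chr12:113271174-113273248 in 4 exons. Both genes have only this form in the deposited table, although GENCODE M21 lists 2 forms of each. Ighg1 has a membrane entry of 6 exons at chr12:113325240-113330523 and a secreted entry of 4 exons at chr12:113328874-113330523. The membrane entry of Ighg2c (chr12:113285325-113288930) ends with its coding sequence, and its secreted entry lies at chr12:113287285-113288932. Igha has a membrane entry at chr12:113254830-113260236 and a secreted entry at chr12:113258702-113260236. The Ighg2b entries are unequal. The secreted entry (chr12:113306285-113307933) is whole, whereas the membrane entry (chr12:113302965-113306711) holds 3 of the 6 exons of GENCODE M21, or 1879 of 2566 bases. Fragments from the first constant domains of Ighg2b could therefore be given to the secreted entry alone, so its membrane share is low by construction and only its differences between libraries can be read.

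The coding ends that tell the forms apart are shown for the genes in which both forms were measured. Sequences are the C57BL/6 reference of GENCODE M21 on the transcribed strand. Lower case marks the last 24 bases that both forms share, and capitals mark the coding bases of that form alone, stop codon included. The membrane end of Ighg1 runs from chr12:113326541-113329007, that of Ighg2b from chr12:113304314-113306420, that of Ighg2c from chr12:113285325-113287420 and that of Igha from chr12:113256201-113258853, each spanning intron sequence that is spliced out.
Ighg1 membrane: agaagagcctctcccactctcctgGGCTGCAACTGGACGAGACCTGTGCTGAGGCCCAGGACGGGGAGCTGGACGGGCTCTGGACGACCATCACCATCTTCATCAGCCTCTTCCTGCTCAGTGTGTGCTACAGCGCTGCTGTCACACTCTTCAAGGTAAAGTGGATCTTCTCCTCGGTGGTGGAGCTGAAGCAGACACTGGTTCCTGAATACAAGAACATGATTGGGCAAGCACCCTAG
Ighg1 secreted: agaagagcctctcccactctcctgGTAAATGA
Ighg2b membrane: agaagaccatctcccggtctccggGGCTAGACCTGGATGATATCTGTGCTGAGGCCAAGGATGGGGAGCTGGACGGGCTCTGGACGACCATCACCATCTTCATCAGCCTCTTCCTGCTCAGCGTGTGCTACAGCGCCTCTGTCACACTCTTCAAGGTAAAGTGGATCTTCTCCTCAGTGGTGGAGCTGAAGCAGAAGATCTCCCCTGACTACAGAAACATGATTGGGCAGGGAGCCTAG
Ighg2b secreted: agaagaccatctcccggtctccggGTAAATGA
Ighg2c membrane: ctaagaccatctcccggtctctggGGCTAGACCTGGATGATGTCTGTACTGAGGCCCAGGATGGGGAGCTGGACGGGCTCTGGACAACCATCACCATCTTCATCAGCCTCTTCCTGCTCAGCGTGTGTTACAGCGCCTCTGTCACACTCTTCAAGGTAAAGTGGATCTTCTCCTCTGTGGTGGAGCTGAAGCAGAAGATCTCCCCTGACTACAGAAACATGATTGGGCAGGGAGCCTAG
Ighg2c secreted: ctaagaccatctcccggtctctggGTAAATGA
Igha membrane: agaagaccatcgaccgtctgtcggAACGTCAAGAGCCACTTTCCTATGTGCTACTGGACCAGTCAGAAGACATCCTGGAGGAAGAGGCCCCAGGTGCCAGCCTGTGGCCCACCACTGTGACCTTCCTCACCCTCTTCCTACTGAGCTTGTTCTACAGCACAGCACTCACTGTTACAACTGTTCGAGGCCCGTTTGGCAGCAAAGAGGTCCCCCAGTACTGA
Igha secreted: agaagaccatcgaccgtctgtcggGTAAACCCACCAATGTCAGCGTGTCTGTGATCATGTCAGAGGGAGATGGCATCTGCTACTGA

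In each γ gene the secreted end adds only 8 coding bases to the shared exon, the same 8 letters in Ighg1, Ighg2b and Ighg2c, whereas the membrane end adds 215. The membrane ends of Ighg2b and Ighg2c are equal at 209 of 215 bases (97.2%), and those of Ighg1 and Ighg2b at 190 (88.4%). Igha differs in kind, with 62 coding bases of its own in the secreted and 197 in the membrane form. With the untranslated bases included, the membrane entries of Ighg1, Ighg2b and Igha have 1516, 1564 and 1568 bases that the secreted entry lacks, so most evidence for the membrane form comes from the long 3' part. The Ighg2c membrane entry has only 215 such bases.

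Reads are told apart by their short sequences, so the 31-base words of the entries were compared. Igha and Ighm share 0 of these words with another constant gene, and Ighg3 secreted has 97.6% of its words to itself. Ighg2b secreted and Ighg2c secreted share 125 words, 12.7% and 11.7% of the words of these entries being found in some other constant gene. The entries share 0 words with any other gene of GENCODE M21. The missing membrane form of Ighg3 has 1430 words of its own, of which 58 occur in the Ighg2b, 29 in the Ighg1 and 18 in the Ighg2c membrane entry, and the part of such reads in those entries was not tested. Strain 129 carries Ighg2a where the C57BL/6 reference carries Ighg2c. The values named Ighg2c thus come from reads that fit a reference allele of another strain, and the part of this mismatch in its level and in its form was not tested.

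The estimated counts of the libraries summed to between 16857925 and 23967233, and 3 counts, taken as the floor, correspond to between 0.128 and 0.162 CPM. CPM are estimated counts per 1000000 of an effective library size, here from TMM, which scales libraries by the transcripts common to them. Scaling by the plain total would lower every log2 ratio of LPS over resting by a like amount, -0.46 in ΔleftPAL and -0.44 in ΔIRIS cells. The B cell markers Ms4a1, Cd79a, Cd79b, Pax5 and Cd22 were present in every library and each within 2-fold in all 4 comparisons. The furthest apart were Cd22 at -0.86 and Cd79b at -0.71 on the log2 scale, both on LPS in ΔleftPAL cells. By total, 3 of these markers were at least 2-fold lower on LPS in ΔleftPAL cells and 1 in ΔIRIS cells, and TMM over genes gave 1 in ΔleftPAL cells. The genotypes were taken from the labels and were not checked in the counts. In the LPS-activated ΔleftPAL library the pseudogene Rps3a3 had 7287 gene counts against 33 to 96 in the others. In the LPS-activated ΔIRIS library Gm12913 and Lars2 took 1.93% and 1.66% of the estimated counts, against at most 0.274% and 0.693% in the others. The part of these in the results was not tested.

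The make-up of the switched transcripts differed between the libraries. Levels are compared between genes in TPM, which are per length. Resting ΔleftPAL cells had the most, 141 TPM over the 6 genes, with Igha first (31.4% of the sum), then Ighg2b (27.0%), Ighg3 (25.1%), Ighg2c (13.9%), Ighg1 (2.56%) and Ighe (0.062%). In the other 3 libraries Ighg3 led and Ighg2b came second. Ighg3 made up 65.8% of 71.7 TPM in resting ΔIRIS cells, where Ighg2b gave 14.8% and Igha 14.4%. After LPS, Ighg3 and Ighg2b together held nearly all of the sum in both genotypes. Their shares were 65.6% and 25.9% of 43.3 TPM in ΔleftPAL cells, and 76.1% and 19.2% of 78.5 TPM in ΔIRIS cells. Ighg1 ranked just below Ighg2b after LPS in both genotypes, with shares of 5.53% in ΔleftPAL and 3.61% in ΔIRIS cells. Set against the IgM of the same library, the switched transcripts were a small part everywhere. Per 1000 TPM of Ighm, switched transcripts made 45.5 TPM at rest and 4.61 TPM after LPS in the ΔleftPAL libraries. The ΔIRIS libraries had 26.1 and 12.7 TPM. In bulk RNA, fewer cells of a kind and less RNA per cell cannot be told apart.

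**Figure D1:**
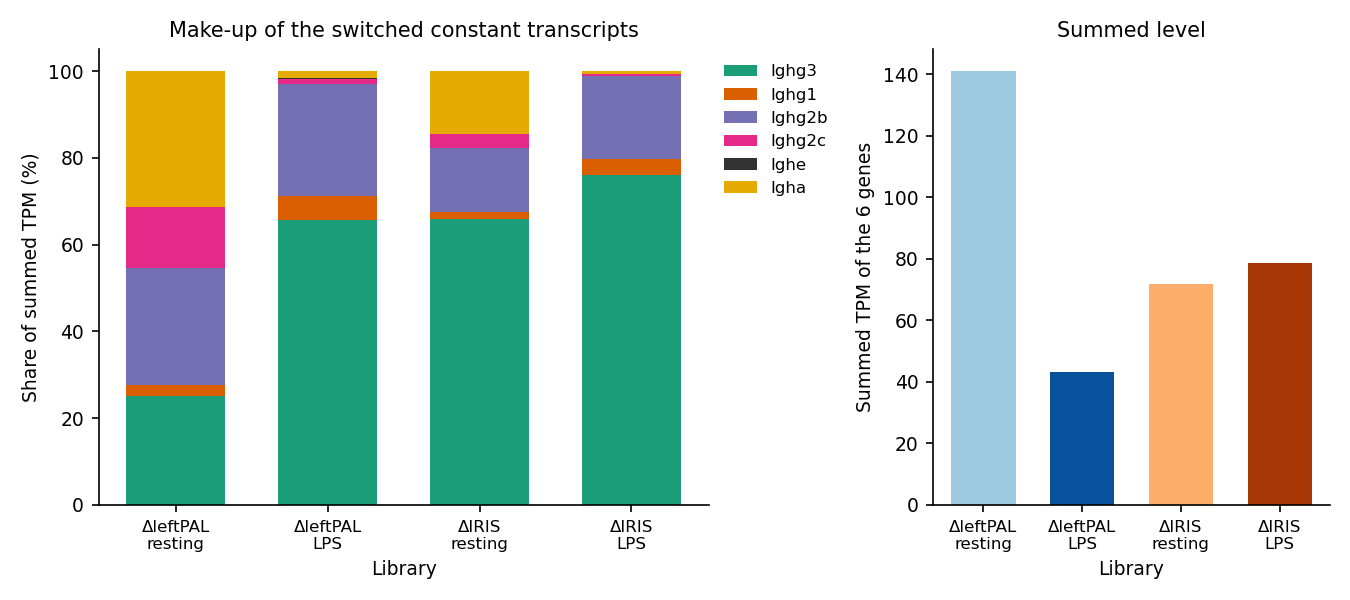
Left, share of the summed TPM of the 6 switched constant genes taken by each gene, in percent, in each of the 4 libraries. Right, the summed TPM itself; Igha is the widest band in resting ΔleftPAL cells (31.4%) and Ighg3 in the others (65.6% to 76.1%), and the sum is highest in resting ΔleftPAL cells (141 TPM).

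Ighg3 encodes the γ3 chain, of an IgG that mice make chiefly against bacterial polysaccharides. Its secreted entry, the only one in the table, could also take reads of the shared exons from membrane mRNA, so the forms are not told apart. This entry had 610 estimated counts at rest and 641 after LPS in ΔleftPAL cells, and 994 and 1511 in ΔIRIS cells. The levels were 29.8, 34.6, 42.6 and 76.1 CPM in that order, so both ΔIRIS libraries were above both ΔleftPAL libraries. The intervals of the ΔleftPAL libraries overlapped (27.5 to 32.2 at rest and 32.0 to 37.4 after LPS), whereas those of the ΔIRIS libraries lay apart from each other and from them. Between the LPS libraries Ighg3 was 2.20-fold higher in ΔIRIS cells (log2 ratio 1.14, interval 1.00 to 1.27), and the gene counts gave 1.12. At rest it was higher in ΔIRIS cells by 0.52 on the log2 scale (interval 0.37 to 0.66), and 0.34 from the gene counts. The change on LPS within ΔIRIS cells was 0.84 (interval 0.72 to 0.96), and 0.66 from the gene counts. Within ΔleftPAL cells it was 0.22 (interval 0.05 to 0.38), but this sign did not hold. It was -0.12 from the gene counts, -0.25 with total scaling and -0.32 in TPM. Relative to Ighm, which was itself higher after LPS, Ighg3 made 11.4 TPM at rest and 3.02 TPM after LPS per 1000 TPM of Ighm in ΔleftPAL, against 17.2 and 9.64 TPM in ΔIRIS cells.

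Ighg2b encodes the γ2b chain and had the most estimated counts of the γ genes with both forms in the table in every library. Its membrane form had 353 estimated counts at rest and 95 after LPS in ΔleftPAL cells, and 92 and 222 in ΔIRIS cells. The secreted form had 489 and 210 in ΔleftPAL cells, and 181 and 275 in ΔIRIS cells. Both forms thus had their highest level in resting ΔleftPAL cells, at 17.2 CPM for the membrane and 23.9 CPM for the secreted form, and their lowest in resting ΔIRIS cells, at 3.94 and 7.75 CPM. LPS-activated ΔIRIS cells came second, at 11.2 and 13.9 CPM, followed by LPS-activated ΔleftPAL cells at 5.13 and 11.3 CPM. For the membrane form the intervals of LPS-activated ΔleftPAL (4.15 to 6.27) and resting ΔIRIS cells (3.18 to 4.83) overlapped, and for the secreted form those of the LPS libraries did (9.86 to 13.0 and 12.3 to 15.6). On LPS the membrane form was 3.36-fold lower in ΔleftPAL cells (log2 ratio -1.75, interval -2.09 to -1.42) and 2.84-fold higher in ΔIRIS cells (1.51, interval 1.15 to 1.87). The secreted entry, which also takes reads of the first domains of membrane mRNA, moved the same ways by less, with -1.07 in ΔleftPAL (interval -1.31 to -0.84) and 0.84 in ΔIRIS cells (interval 0.56 to 1.12). Between the LPS libraries the membrane form was 2.18-fold higher in ΔIRIS cells (log2 ratio 1.12, interval 0.77 to 1.49) and the secreted form 1.22-fold (0.29, interval 0.02 to 0.56). For the gene as a whole the log2 ratio of the LPS libraries was 0.60, against 0.31 from the gene counts, which take in none of the membrane exons. Ighm was higher after LPS, and per 1000 TPM of Ighm the gene Ighg2b was lower on LPS in both genotypes. It made 12.3 TPM at rest and 1.19 TPM after LPS in ΔleftPAL, and 3.85 and 2.44 TPM in ΔIRIS cells.

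Ighg1 encodes the γ1 chain, whose germline promoter is known for its response to IL-4, a cytokine that these cultures did not receive. The membrane form of Ighg1 had 106 estimated counts at rest and 68 after LPS in ΔleftPAL cells, and 36 and 126 in ΔIRIS cells. The secreted form had 21, 28, 11 and 23 in the same order. Resting ΔIRIS cells were lowest in both forms, at 1.54 CPM for the membrane and 0.471 CPM for the secreted form. The 3 other libraries lay between 3.67 and 6.35 CPM in the membrane form, where the LPS libraries were apart (2.85 to 4.65 in ΔleftPAL and 5.29 to 7.56 in ΔIRIS cells). In the secreted form they lay between 1.02 and 1.51 CPM with overlapping intervals, and that of resting ΔIRIS cells (0.235 to 0.843) reached into those of resting ΔleftPAL and LPS-activated ΔIRIS cells. On LPS the membrane form was 4.12-fold higher in ΔIRIS cells (log2 ratio 2.04, interval 1.5 to 2.62) and slightly lower in ΔleftPAL cells (-0.49, interval -0.96 to -0.04). For the whole gene the ΔleftPAL difference was within counting error (-0.27, interval -0.67 to 0.12). The secreted form differed by 1.3 on the log2 scale in ΔIRIS cells (interval 0.20 to 2.48) and by 0.56 in ΔleftPAL cells (interval -0.31 to 1.45). Between the LPS libraries the whole gene was higher in ΔIRIS cells by 0.55 (interval 0.17 to 0.94). The gene counts, which take in none of the membrane exons, were 54 in ΔleftPAL and 75 in ΔIRIS cells. Their log2 ratio was within counting error (0.33, interval -0.20 to 0.86).

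Ighg2c encodes the γ2c chain of the reference strain. Its secreted form had 350 estimated counts in resting ΔleftPAL cells, 51 in resting ΔIRIS cells, 12 in LPS-activated ΔleftPAL cells and 6 in LPS-activated ΔIRIS cells. The intervals of the LPS libraries overlapped (0.335 to 1.13 and 0.111 to 0.658 CPM) and the resting libraries stood apart from them and from each other, at 17.1 and 2.18 CPM. The secreted form was 26.4-fold lower on LPS in ΔleftPAL cells (log2 ratio -4.72, interval -5.69 to -3.90) and 7.22-fold lower in ΔIRIS cells (-2.85, interval -4.36 to -1.63). Between the resting libraries it was 7.82-fold lower in ΔIRIS cells (-2.97, interval -3.42 to -2.54). The membrane form was listed at 0 in 3 libraries and had 4 estimated counts in LPS-activated ΔIRIS cells, which is too few to compare. The gene counts also put Ighg2c at 375 and 49 in the resting libraries, but after LPS at 8 in ΔleftPAL and 20 in ΔIRIS cells, so the order of the LPS libraries depended on the table.

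Igha encodes the α chain of IgA, the antibody of mucosal surfaces. Its secreted form had 763 estimated counts in resting ΔleftPAL cells and 14 after LPS, and 213 and 11 in ΔIRIS cells. The membrane form had 45 and 8 in ΔleftPAL cells, and 23 and 4 in ΔIRIS cells. In both forms the order was resting ΔleftPAL, resting ΔIRIS and then the LPS libraries, whose intervals overlapped. For the membrane form the intervals of resting ΔIRIS (0.624 to 1.48 CPM) and LPS-activated ΔleftPAL cells (0.186 to 0.851 CPM) overlapped too. The secreted form was 49.3-fold lower on LPS in ΔleftPAL cells (log2 ratio -5.62, interval -6.50 to -4.87) and 16.5-fold lower in ΔIRIS cells (-4.04, interval -5.06 to -3.17). The membrane form differed by less, 5.09-fold (-2.35, interval -3.64 to -1.25) and 4.89-fold (-2.29, interval -4.28 to -0.74). At rest ΔIRIS cells had 4.08-fold less of the secreted form (-2.03, interval -2.26 to -1.81) and 2.23-fold less of the membrane form (-1.16, interval -1.95 to -0.40). The gene counts of Igha, 748, 18, 213 and 12, gave the same order of the libraries.

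Ighe, the gene of the IgE heavy chain, was at or under the floor everywhere. Its secreted transcript had 2 estimated counts at rest and 1 after LPS in ΔleftPAL cells. In ΔIRIS cells it had 1 at rest and 0 after LPS, where the floor of 3 counts is 0.151 CPM and the Poisson interval reaches 0.186 CPM. The gene counts were the same numbers.

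**Figure D2:**
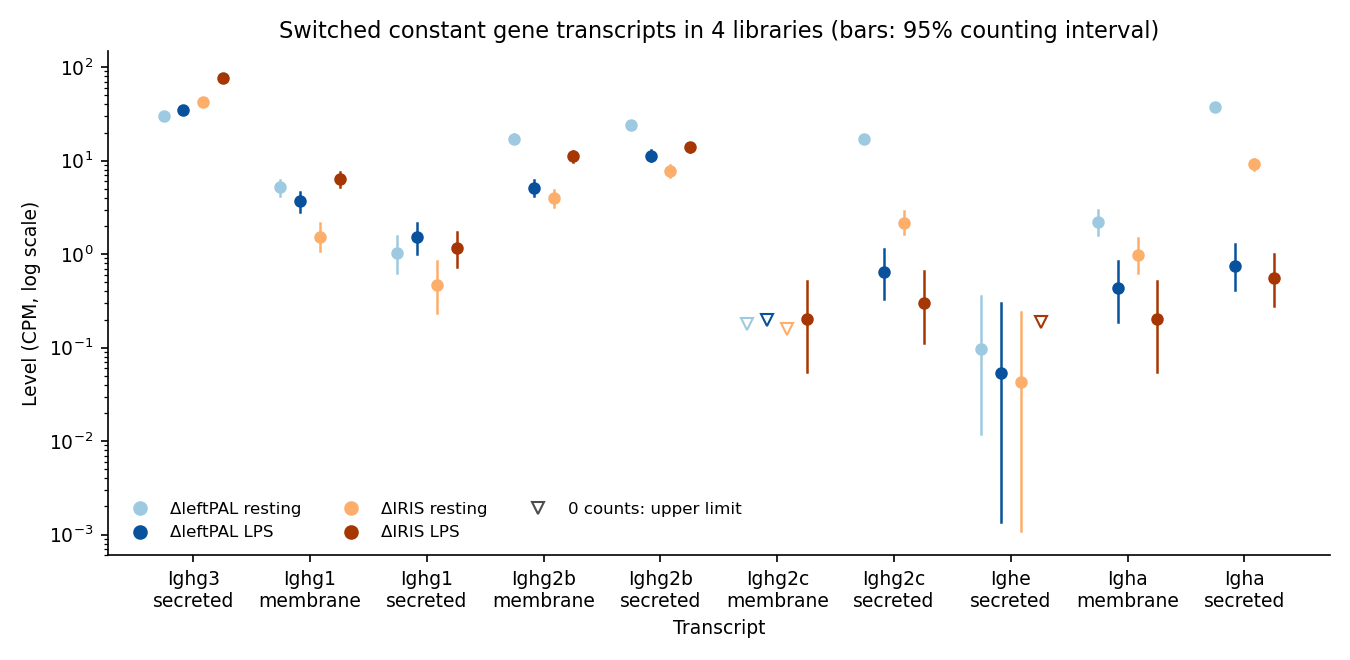
Level of each switched constant transcript in CPM, on a log scale, in each of the 4 libraries. Points are single libraries, bars their 95% Poisson intervals, and open triangles the upper limit where the count was 0; Ighg2c and Igha are high only in resting cells, whereas Ighg3 is highest in LPS-activated ΔIRIS cells (76.1 CPM).

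The membrane share, the estimated counts of the membrane form as a percentage of both forms, fell far in Ighm on LPS in both genotypes, whereas the switched genes had smaller changes in either direction. Ighm went from 76.2% membrane at rest to 15.5% after LPS in ΔleftPAL cells, and from 76.0% to 23.2% in ΔIRIS cells. The secreted form of Ighm was 14.2-fold higher on LPS in ΔleftPAL and 9.45-fold higher in ΔIRIS cells, and its membrane form 1.22-fold and 1.11-fold lower. A fall of that size was possible only for Ighg1 among the switched genes, since the others had a lower membrane share at rest or no membrane entry. Ighg1 had more membrane than secreted counts in every library, the membrane entry being the longer one (2482 against 1076 bases). Its membrane share was 83.5% (interval 75.8 to 89.5) at rest and 70.8% (60.7 to 79.7) after LPS in ΔleftPAL cells, and 76.6% (62.0 to 87.7) and 84.6% (77.7 to 90) in ΔIRIS cells. These intervals overlapped within each genotype. For Ighg2b the membrane share was 41.9% (38.6 to 45.3) at rest and 31.1% (26.0 to 36.7) after LPS in ΔleftPAL cells, whereas in ΔIRIS cells it was 33.7% (28.1 to 39.6) at rest and 44.7% (40.2 to 49.2) after LPS. The share was thus lower after LPS in ΔleftPAL and higher in ΔIRIS cells, with intervals apart in both genotypes and between the LPS libraries, and overlapping between the resting libraries. Igha was mostly secreted at rest, with a membrane share of 5.57% (4.09 to 7.38) in ΔleftPAL and 9.75% (6.28 to 14.3) in ΔIRIS cells. After LPS it was 36.4% of 22 counts (17.2 to 59.3) and 26.7% of 15 counts (7.79 to 55.1), so that only the ΔleftPAL intervals lay apart. For Ighg2c the membrane share was 0 of 350 counts in resting ΔleftPAL cells, 0 of 12 after LPS and 0 of 51 in resting ΔIRIS cells. In LPS-activated ΔIRIS cells it was 4 of 10, or 40% (12.2 to 73.8), apart from the resting ΔIRIS interval (up to 6.98%). Only 12.9% of the words of the Ighg2c membrane entry are its own, so few reads could tell its forms apart, which these intervals do not cover. Ighg1 and Igha have 60.3% and 62.5% own words in the membrane entry, but only 10.4% and 12% in the secreted entry. Their intervals do not cover this either. Per length, in TPM, the shares of Ighg1 were 48.4% to 67.7%, and the lowest, in LPS-activated ΔleftPAL cells, was not a majority. Those of Ighg2b were 19.7% to 30.4% in TPM, and each gene kept its order of libraries.

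The gene counts bear on the same shares in another way, though from the same reads. They cover 0 of the bases found only in the membrane form of Ighg1, Ighg2b and Igha, so reads of the membrane exons enter the estimated counts alone. Dividing the gene counts by the estimated counts gave, for Ighg2b, 0.814 at rest and 0.984 after LPS in ΔleftPAL, and 0.901 and 0.827 in ΔIRIS cells. For Ighg1 it was 0.504, 0.568, 0.553 and 0.503 in the same order of libraries. For Ighg1 the libraries came in the reverse order of their membrane shares. For Ighg2b the libraries with the higher membrane shares, resting ΔleftPAL and LPS-activated ΔIRIS, had the lower values, but in the other order between them. For Igha it was 0.926 and 0.903 at rest and 0.818 and 0.8 after LPS, where few counts remained. Ighg3, with no membrane entry, had ratios of 0.988 to 1.10, and the median over all genes with at least 100 estimated counts was 0.985 to 0.988.

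**Figure D3:**
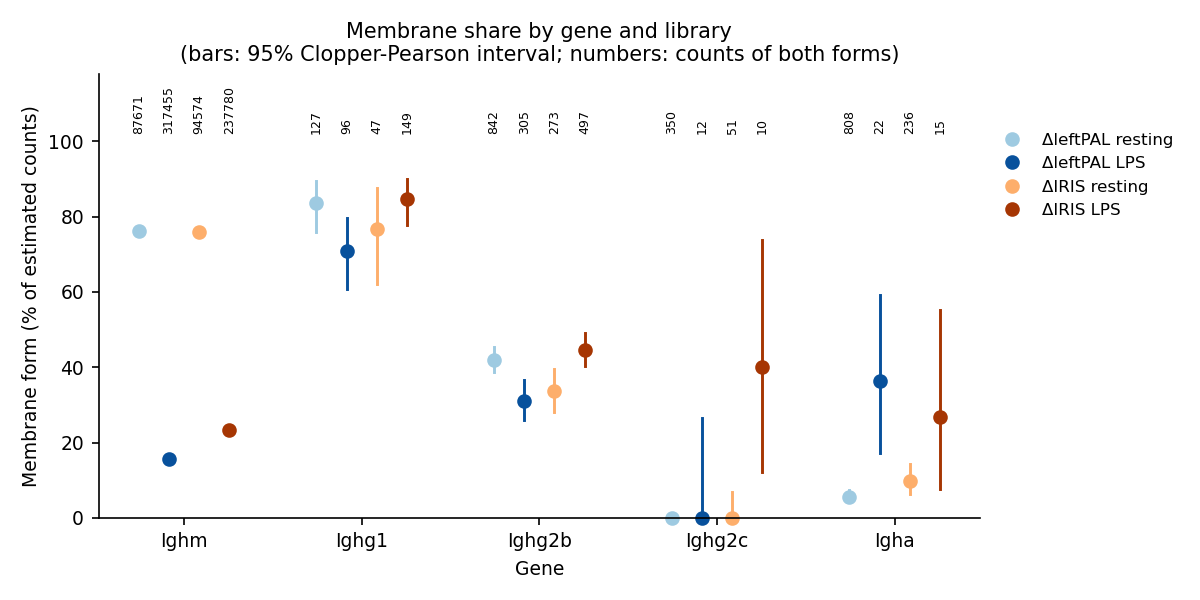
Membrane form as a percentage of the estimated counts of both forms, for the 5 genes with both forms in the table, in each of the 4 libraries. Points are single libraries, bars 95% Clopper-Pearson intervals, and the numbers above give the counts behind each share; Ighm drops from about 76% to 15.5% and 23.2% on LPS, whereas the Ighg2b shares cross between the genotypes.

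Counted together, the switched transcripts are set here beside all transcripts. Of the 10 transcripts, 6 had a mean of at least 50 estimated counts and entered this count, as 21936 transcripts did in all, and a prior of 0.5 CPM was added. Ighg1 secreted, Igha membrane, Ighg2c membrane and Ighe fell under the minimum, and Igha and Ighg2c secreted passed it through their high resting libraries, so that they had to differ. On LPS in ΔleftPAL cells 4 of the 6 were at least 2-fold lower (Ighg2b in both forms, Ighg2c and Igha; 3 with DESeq2 size factors or a prior of 5 CPM, which end the call of Ighg2b secreted) and 0 at least 2-fold higher, where 15.3% of all transcripts were lower and 23.7% were higher. On LPS in ΔIRIS cells 2 were higher (the membrane forms of Ighg1 and Ighg2b) and 2 lower (Ighg2c and Igha), beside 23.8% and 18.4% of all transcripts. By total or in TPM 1 was higher, and a prior of 5 CPM left 0 higher and 1 lower. At rest 5 were at least 2-fold lower in ΔIRIS than in ΔleftPAL cells, which leaves only Ighg3, and 0 higher, beside 2.75% and 4.36% of all transcripts. A prior of 5 CPM left 4 lower, without the Ighg1 membrane form. Ighg2c passed the minimum only through the resting ΔleftPAL library in which it was high, so its place in this count says nothing. Between the LPS libraries 2 were higher in ΔIRIS cells (Ighg3 and the Ighg2b membrane form) and 0 lower, beside 2.39% and 3.3% of all. The 2 became 1 by total, in TPM or with a prior of 5 CPM. The background on LPS depended on scaling. By total, 26.3% of all transcripts were lower and 14.8% higher in ΔleftPAL cells, and 28.7% and 15.3% in ΔIRIS cells, so that the balance turned. These 4 comparisons share libraries in pairs, so the low values at rest in ΔIRIS cells and the low values on LPS in ΔleftPAL cells both rest on the resting ΔleftPAL library.

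The same count over summed genes had 5 of the 6 genes among 11316. On LPS in ΔleftPAL cells 3 were at least 2-fold lower (Ighg2b, Ighg2c and Igha) and 0 higher, beside 12.1% and 25.6% of all genes. Ighg2c and Igha passed the minimum mean only through resting libraries in which they were high, so their calls add nothing to this count. On LPS in ΔIRIS cells 2 were lower, again Ighg2c and Igha, and 2 higher, beside 14.4% and 26%. These 2 lower genes likewise add nothing to the count, and total scaling or TMM over genes left 1 higher. By total, 21.2% of all genes were lower and 14.5% higher in ΔleftPAL cells, and 23% and 15.3% in ΔIRIS cells. At rest 4 were lower and 0 higher in ΔIRIS cells, beside 0.848% and 1.79%, and Ighg2c is again among them only through the resting ΔleftPAL library. Between the LPS libraries Ighg3 alone was at least 2-fold higher in ΔIRIS cells and 0 were lower, beside 0.521% and 1.56%. The median log2 ratio of the members between the resting libraries was -1.77 with Ighg2c included. It is therefore not read against the 0.04 for all genes.

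**Figure D4:**
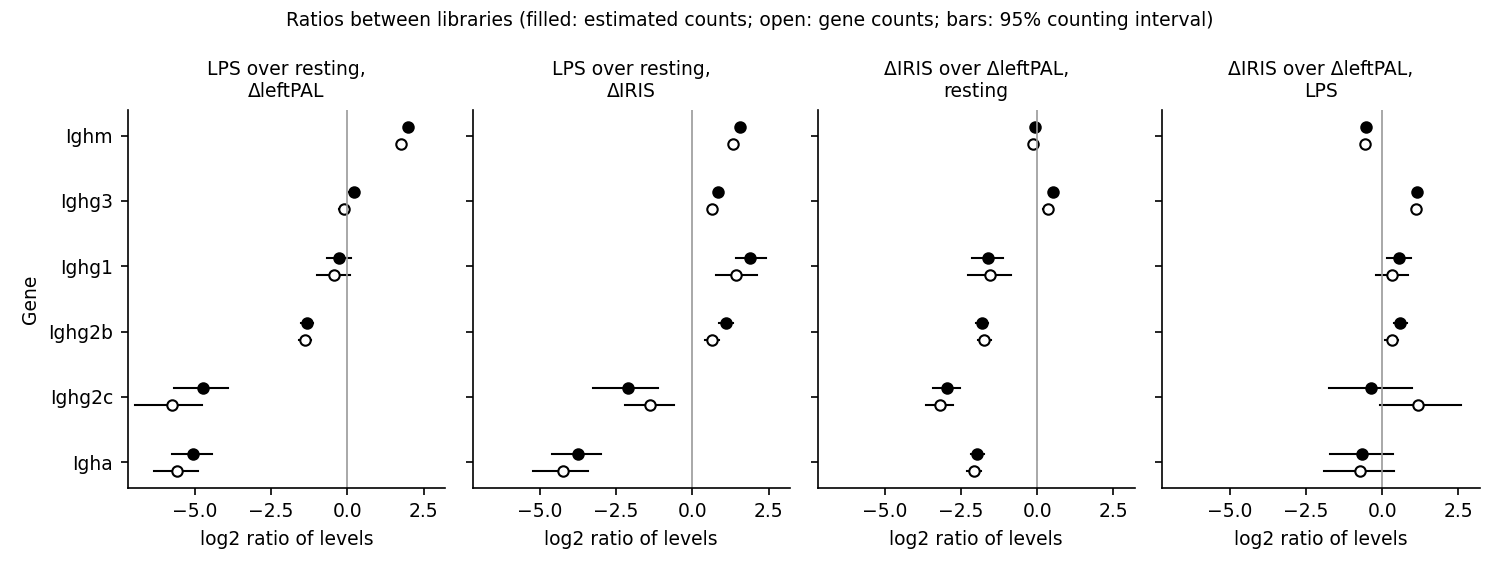
Log2 ratios between libraries for Ighm and the switched constant genes above the floor, in the 4 comparisons. Filled points come from estimated counts, open points from gene counts, and bars are 95% intervals for counting error; Ighg2c and Igha lie far to the left on LPS in both genotypes, whereas Ighg1 and Ighg2b lie on opposite sides of 0 on LPS in ΔleftPAL and ΔIRIS cells, with the Ighg1 interval in ΔleftPAL cells crossing 0.

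Among genes that act in the choice between secreted and membrane mRNA, Ell2 and Snrpa had the largest ratios on LPS in both genotypes. Of 20 such genes, 9 were at least 2-fold higher and 0 lower on LPS in ΔleftPAL cells, beside 25.6% and 12.1% of all genes. Their median log2 ratio was 0.84 against 0.29 for all genes, and total scaling left 2 higher and 1 lower, beside 14.5% and 21.2% of all genes, so that the count depended on the scaling. The largest ratio was that of Ell2, an elongation factor that favours the secretory poly(A) site, at 2.45 (42.0 to 232 CPM), followed by Snrpa, a U1 snRNP protein, at 1.91. Cpsf4 (1.38), Cstf2 (1.21), Cstf1 (1.03) and Pabpn1 (1.11) of the cleavage and polyadenylation machinery and the RNA-binding proteins Hnrnpf (1.09), Hnrnpl (1.06) and Srsf3 (1.02) made up the rest. In ΔIRIS cells 8 were higher and 1 lower, beside 26% and 14.4% of all genes, with Ell2 at 1.56 (51.9 to 154 CPM), Snrpa at 1.81, Cstf2 at 1.47, Cstf1 at 1.44, Cpsf4 at 1.29, Cpsf2 at 1.25, Pabpn1 at 1.18 and Hnrnpl at 1.05, and Aff1, a partner in the super elongation complex, was lower at -1.80. With total scaling 4 were at least 2-fold higher and 3 lower, beside 15.3% and 23% of all genes. Between the genotypes 0 of 20 were 2-fold apart, where 0.521% to 1.79% of all genes were in either direction, and Ell2 gave -0.58 after LPS.

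Among 27 transcription factors of the germline promoters and receptors that act on them, Batf, an AP-1 family factor needed for switching, and Tnfrsf13b, the receptor TACI, were at least 2-fold higher on LPS in both genotypes. Batf had log2 ratios of 3.84 in ΔleftPAL and 4.03 in ΔIRIS cells, and Tnfrsf13b of 1.62 and 2.00. Ets1 (-1.58 and -1.90), Il4ra, the IL-4 receptor chain (-1.26 and -1.24), and Ifngr1, a chain of the interferon γ receptor (-1.66 and -2.08), were lower in both. Tbx21, the factor T-bet that acts on the γ2a and γ2c promoters, was lower on LPS in ΔleftPAL cells (-1.43) and had 5.51 CPM in resting ΔleftPAL, 2.4 in resting ΔIRIS and 1.73 and 1.56 in the LPS libraries. Rel, an NF-κB subunit, was lower on LPS in ΔIRIS cells (-2.58), as was the TGFβ receptor gene Tgfbr1 (-1.25). Between the resting libraries Rel (1.2) and Irf4 (1.17) were higher and Tbx21 (-1.05) lower in ΔIRIS cells, Tbx21 having passed the minimum mean only through resting ΔleftPAL cells, and Irf4, a factor of switching and of plasma cells, was also higher on LPS in ΔleftPAL cells (1.01), which total scaling and TMM over genes bring under 2-fold. In all 3 of 27 were at least 2-fold higher and 4 lower on LPS in ΔleftPAL cells, and 2 and 5 in ΔIRIS cells, beside 25.6% higher and 12.1% lower of all genes in ΔleftPAL and 26% and 14.4% in ΔIRIS cells. Tbx21 is among the 4 lower in ΔleftPAL cells but adds nothing there, having passed the minimum mean only through resting ΔleftPAL cells. Total scaling gave 10 lower in each, beside 21.2% and 23% of all genes. Between the LPS libraries 0 of 27 were 2-fold apart, where 0.521% of all genes were higher and 1.56% lower.

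Of 10 partners of membrane immunoglobulin, 1 was at least 2-fold higher and 1 lower on LPS in each genotype. Of all genes, 25.6% were higher and 12.1% lower in ΔleftPAL cells, and 26% and 14.4% in ΔIRIS cells. Among the partners Fcgr2b, an inhibitory Fc receptor, was higher on LPS (log2 ratio 1.42 in ΔleftPAL and 2.08 in ΔIRIS cells). Total scaling ends its call in ΔleftPAL cells. Cr2, a complement receptor, was lower on LPS (-1.85 and -2.33). It was also lower in ΔIRIS than in ΔleftPAL cells after LPS (-1.04), a call that DESeq2 size factors end. Total scaling gave 5 genes at least 2-fold lower in ΔleftPAL cells and 3 in ΔIRIS cells, beside 21.2% and 23% of all genes, where the main scaling had 12.1% and 14.4%. Cd79a and Cd79b, which carry the membrane form of every isotype, had log2 ratios of -0.64 and -0.71 on LPS in ΔleftPAL cells and -0.69 and -0.22 in ΔIRIS cells. Of 8 genes linked to memory B cells, Zbtb32 was far higher on LPS in both genotypes (6.13 and 6.84), and Cd80 was higher in ΔleftPAL cells (1.35). Klf2 (-3.49 and -2.65), Pdcd1lg2, the ligand PD-L2 (-2.07 and -2.45), and Nt5e, the ectoenzyme CD73 (-1.37 and -1.20), were lower in both genotypes, and Hhex was lower in ΔleftPAL cells (-1.59). On LPS 2 of the 8 were higher and 4 lower in ΔleftPAL cells, and 1 and 3 in ΔIRIS cells, beside 25.6% and 12.1%, and 26% and 14.4%, of all genes. By total 1 was higher in ΔleftPAL cells, without Cd80, and 6 were lower in each genotype, beside 21.2% and 23% of all genes. Nt5e and Pdcd1lg2 passed the minimum only through the resting libraries, so their calls as lower on LPS add nothing to these counts. Between the genotypes 0 of the 8 were 2-fold apart, where 0.521% to 1.79% of all genes were in either direction, so that little can be read from it.

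Markers of other B cell states and other cells are set here beside the switched genes, and not all of them changed in the same direction as these. At rest, where Ighg1, Ighg2b and Igha were lower in ΔIRIS cells, 3 of 10 germinal centre markers were at least 2-fold lower too, beside 0.848% of all genes, and 0 were higher. Nuggc passed the minimum mean only through the resting ΔleftPAL library in which it was high, so it adds nothing to this count. The 3 were Nuggc (11.7 against 1.54 CPM), Mybl1 (16.5 against 3.17 CPM) and S1pr2 (8.88 against 1.76 CPM), and the list had a median log2 ratio of -0.77. Bcl6, the defining factor of these cells, was at 52.8 and 44.0 CPM. The summed level of the list was 173 CPM in resting ΔleftPAL and 129 in resting ΔIRIS cells, and 96.0 and 91.4 after LPS, with Gcsam at 0 in LPS-activated ΔleftPAL cells. On LPS 5 of the 10 were lower in ΔleftPAL cells (Bcl6, Gcsam, Rgs13, Nuggc and Efnb1, from -1.38 to -3.71) and 4 in ΔIRIS cells (Bcl6, Gcsam, Basp1 and Neil1, from -1.44 to -3.07), where Mybl1 was higher (3.46). Of all genes 12.1% were lower in ΔleftPAL and 14.4% in ΔIRIS cells, but Gcsam, Rgs13 and Efnb1 passed the minimum only through resting libraries, so that these counts are not read against that share. Total scaling gave 8 lower in ΔleftPAL and 6 in ΔIRIS cells, beside 21.2% and 23% of all genes. Basp1 was also lower in ΔIRIS than in ΔleftPAL cells after LPS (-1.07), a call that DESeq2 size factors end. The part of such cells in the levels of the switched transcripts was not tested.

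Most plasma cell markers were higher on LPS. Of 7 markers tested, 6 were at least 2-fold higher in ΔleftPAL cells (Prdm1 4.18, Derl3 2.95, Xbp1 2.94, Mzb1 2.65, Igj 1.70 and Irf4 1.01) and 5 in ΔIRIS cells (Mzb1 2.80, Prdm1 2.78, Derl3 2.62, Xbp1 2.26 and Igj 1.12), beside 25.6% and 26% of all genes. Sdc1, the marker CD138, had log2 ratios of 0.76 in ΔleftPAL and -0.18 in ΔIRIS cells, and Irf4 had -0.37 in ΔIRIS cells. Total scaling and TMM over genes each gave 5 higher in ΔleftPAL cells, without Irf4, and 4 in ΔIRIS cells, without Igj. Their summed level was 744 CPM at rest and 2700 CPM after LPS in ΔleftPAL cells, and 1120 and 1930 CPM in ΔIRIS cells, while Igha and Ighg2c were lower on LPS in both. Of these sums Irf4 alone gave 332 CPM in resting ΔleftPAL and 750 CPM in resting ΔIRIS cells. Between the LPS libraries the list had a median log2 ratio of -0.42 for ΔIRIS over ΔleftPAL cells, against 0.03 for all genes. At rest Irf4 alone was 2-fold higher in ΔIRIS cells. The CD43 depletion before culture removes plasma cells and many cells that are not B cells. Markers of such other cells were low after culture, and those that were tested passed the minimum mean mostly through the resting libraries. T cell markers summed to 30.0 and 35.2 CPM at rest and 3.51 and 2.82 CPM after LPS, and Cd4 (-3.86 and -4.78) and Cd8a (-1.73 and -2.56), the 2 of 6 that were tested, were lower in both genotypes, with Cd3e and Cd3g at 0 after LPS. Myeloid markers summed to 357 and 496 CPM at rest and 12 and 25.1 CPM after LPS. Lyz2 (-5.58 and -7.27), Csf1r (-7.29 and -8.15) and Cd14 (-3.52 and -3.98) were lower on LPS, Itgam had log2 ratios of -0.96 and 0.59 and gave 23.8 CPM of the sum after LPS in ΔIRIS cells, S100a8 and S100a9 were at 0 after LPS, and between the LPS libraries Itgam was higher (1.34) and Lyz2 lower (-1.02) in ΔIRIS cells, the latter not with DESeq2 size factors or TMM over genes. The erythroid markers Hba-a1, Hba-a2, Hbb-bs, Hbb-bt and Alas2 summed to 48900 and 35400 CPM at rest and 86.1 and 184 CPM after LPS, with log2 ratios on LPS between -7.44 and -10.30. Hba-a2 (1.17), Hbb-bs (1.01) and Hbb-bt (1.85) were higher in LPS-activated ΔIRIS than in LPS-activated ΔleftPAL cells, where 0.521% of all genes were. Total scaling shifts these ratios by -0.09, which ends the call of Hbb-bs. The part of these cells in the results was not tested.

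**Figure D5:**
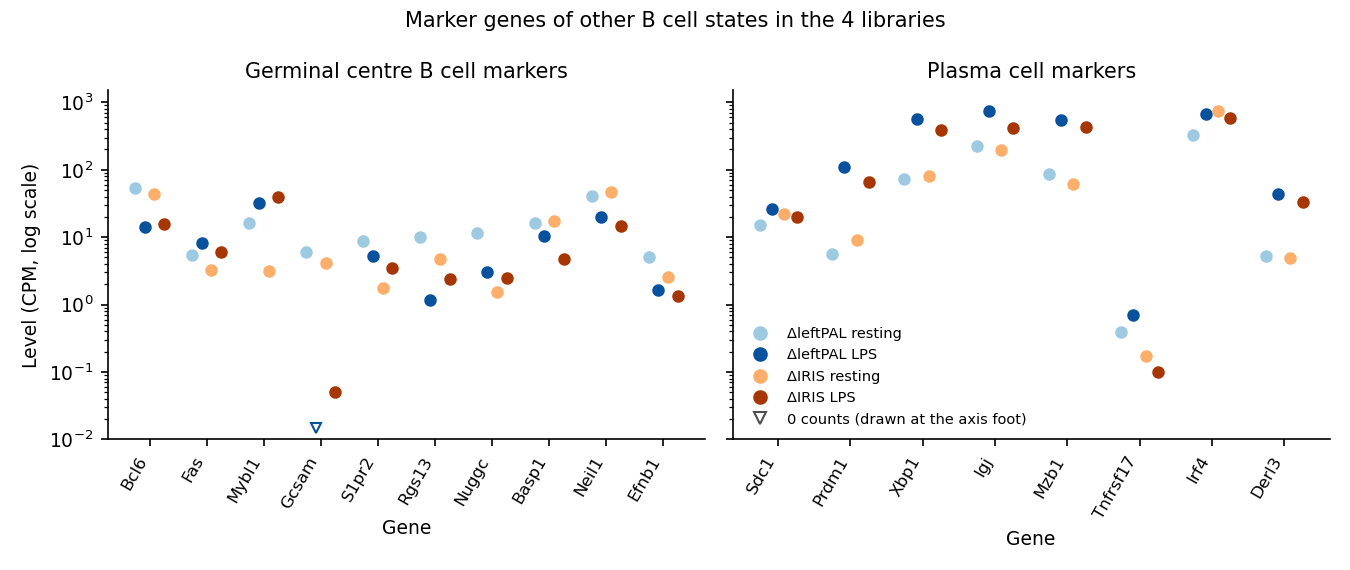
Level in CPM, on a log scale, of 10 germinal centre and 8 plasma cell markers in each of the 4 libraries. Points are single libraries and the open triangle stands for 0 counts; Nuggc, Mybl1 and S1pr2 are lower in resting ΔIRIS than in resting ΔleftPAL cells, and Prdm1, Xbp1, Igj, Mzb1 and Derl3 are higher after LPS in both genotypes.

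For each switched gene with a mean of at least 50 estimated counts, the 3 genes whose profile over the 4 libraries lay closest were looked up, by the root mean square distance of centred log2 levels. With only 4 libraries the distances are a description. Nearest to Ighg3 were Camkk1 (distance 0.057), Gm15280 (0.075) and Socs3 (0.114). Ighg1 had Fam57a (0.101), Tmem254c (0.168) and Zfp763 (0.176). The genes nearest to Ighg2b were Ackr2 (0.206), Oas1a (0.260) and Gm12250 (0.264). Ighg2c had C4b (0.315), Gm14446 (0.330) and Slfn1 (0.348), and Igha had Gm14446 (0.416), Apol7e (0.439) and Ctrb1 (0.525). Gm14446, near both Ighg2c and Igha, had 782 estimated counts at rest and 45 after LPS in ΔleftPAL cells, and 224 and 32 in ΔIRIS cells.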

How the data were processed

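Total RNA of the 4 libraries was depleted of ribosomal RNA, made into stranded libraries and sequenced as paired reads of 150 nt. Per the labels and the methods, the authors aligned reads with STAR 2.4.0a to mm10 and counted them per gene with featureCounts (Subread 1.4.6-p1) on the sense strand, multi-mapping reads included, and these deposited gene counts are whole numbers that were not normalized. The deposited estimated counts per transcript were made by the authors with kallisto 0.42.3, whose index and settings are not given in the sources used here. The deposited TPM values come from the same run and are scaled for transcript length and depth. The column names of the annotation in that table are shifted, and the transcript identifiers were used.

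Estimated counts were rounded to whole numbers, for genes after summing, and scaled with TMM (edgeR 4.0.16) over transcripts with a mean of at least 10. CPM, exact intervals and log2 ratios were computed with Python 3.11.15 and scipy 1.17.1. Counts of features at least 2-fold apart used a minimum mean of 50 and a prior of 0.5 CPM. No p-value was computed, because each group has 1 library. The 1 row of the gene table without a name was left out, which held at most 0.0264% of the counts. A gene of the lists is not reported here. Sequences and exon structures came from GENCODE M21 transcripts on GRCm38, in which every member transcript was found by its identifier, with the membrane entries of Ighg2b and Ighg2c shorter in the deposited table.

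The 6 genes, the lists and the rules were chosen with earlier results of these data known. Named genes were all members, the genes of the lists that were at least 2-fold apart in some comparison (or the 2 furthest apart), and the 3 nearest profiles of each member with a mean of at least 50. The markers Ms4a1, Pax5 and Sdc1 were named outside these rules. Bcl6, Cd79a, Cd79b on LPS, and the markers at 0 were named after their values were seen. Other scalings (total, DESeq2 1.42.0 size factors, TMM without immunoglobulin genes, Ighm), other minimums and priors, TPM and gene counts were tried as alternatives. TMM over genes and the scalings of gene and list counts were added after the data were seen. On data simulated for the comparison of the LPS libraries over 21936 transcripts, 186 of 200 transcripts changed 4-fold stayed above the minimum mean, and all 186 were recovered with 0 unchanged transcripts called. The simulated counts held Poisson error only and were scaled by their known totals, without spread between mice, pools or cultures. This checks the calculation and says nothing of false calls between the real libraries.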

Additional observations from a re-analysis of the deposited data

Results flagged for a closer look

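The results named here had point values of opposite sign on LPS in ΔleftPAL and ΔIRIS cells. For the gene Ighg1 the ΔleftPAL value, -0.27, was within counting error (interval -0.67 to 0.12), and its membrane shares had overlapping intervals within each genotype. Relative to Ighm, Ighg2b was lower on LPS in both genotypes (-3.32 and -0.47). With 1 library per group the differences were not tested. In log2 units, the change on LPS in ΔIRIS minus that in ΔleftPAL cells was 2.17 for the gene Ighg1 and 2.42 for Ighg2b. By form it was 2.54 for Ighg1 membrane, 3.25 for Ighg2b membrane and 1.91 for Ighg2b secreted. For the genes Ighg1 and Ighg2b the larger part lay between the resting libraries. There the log2 ratio of ΔIRIS over ΔleftPAL cells was -1.62 and -1.81, against 0.55 and 0.60 between the LPS libraries. The change of the membrane share on LPS was 7.97 percentage points in ΔIRIS and -12.6 in ΔleftPAL cells for Ighg1, a signed difference of 20.6 points, and for Ighg2b the signed difference was 21.7 points. Among the genes of the lists, the same difference was -1.37 for Irf4, 1.55 for S1pr2, 2.34 for Nuggc and 1.55 for Itgam.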

How the results depend on the processing

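Scaling changed the sign of some differences, those of Ighg3 and Ighg2b on LPS in ΔIRIS cells included, and the lower levels of Igha and Ighg2c on LPS kept their direction under each alternative run. For Ighg3 on LPS in ΔleftPAL cells the log2 ratio was -0.25 by total, 0.04 by TMM over genes, -0.12 by gene counts, -0.32 in TPM and -1.78 against Ighm. In ΔIRIS cells it was 0.40, 0.72, 0.66, 0.34 and -0.73 in that order, and 0.97 with DESeq2 size factors. Between genotypes Ighg3 gave 0.34 by gene counts at rest and 1.65 against Ighm after LPS. Ighg1 gave -0.74 by total and -2.28 against Ighm on LPS in ΔleftPAL cells, 1.27 in TPM and 0.33 against Ighm in ΔIRIS cells, and 1.07 against Ighm between the LPS libraries. Ighg2b gave -1.78 by total, -1.77 in TPM and -3.32 against Ighm on LPS in ΔleftPAL cells. In ΔIRIS cells it gave 0.66 by total, 0.64 by gene counts, 0.51 in TPM and -0.47 against Ighm, and between the LPS libraries 0.31 by gene counts and 1.12 against Ighm. Ighg2c gave -5.75 by gene counts and -6.72 against Ighm in ΔleftPAL cells, -3.68 against Ighm in ΔIRIS cells and 1.17 by gene counts between the LPS libraries. Igha gave -5.90 in TPM and -7.06 against Ighm in ΔleftPAL cells and -5.31 against Ighm in ΔIRIS cells. The Ighm membrane form after LPS gave -0.03 by total and -0.01 in TPM.

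By form, on LPS in ΔleftPAL cells, total scaling and TPM gave -0.96 and -1.03 for Ighg1 membrane, -2.21 and -2.28 for Ighg2b membrane, and -1.54 and -1.60 for Ighg2b secreted. In ΔIRIS cells they gave 1.06 and 1.01 for Ighg2b membrane, and 0.39 and 0.34 for Ighg2b secreted. Membrane shares in TPM were 65.5%, 48.4%, 56.7% and 67.7% for Ighg1 and 28.2%, 19.7%, 21.6% and 30.4% for Ighg2b, at rest and after LPS in ΔleftPAL and then in ΔIRIS cells, and 2.2% and 3.97% for resting Igha. Member transcripts at least 2-fold higher on LPS in ΔIRIS cells numbered 1 by total or TPM and 0 with a prior of 5 CPM, which also left 1 lower. Those higher between the LPS libraries numbered 1 by total, TPM or that prior, and genes higher on LPS in ΔIRIS cells 1 by total or TMM over genes. Beyond scaling by construction, the cause was not tested. No library could be left out, and no paired analysis was possible because each group has 1 library. Counts under about 20, as for Igha and Ighg2c after LPS, limit what depth can show.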
